A study of Mus musculus with 9 samples.

Results

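The gene set described here consists of the secreted or membrane-bound guidance cues first described in growing axons and of their receptors, in pancreatic ductal adenocarcinoma (PDAC) cells with and without Yap. Members were taken by symbol from 9 families, namely Eph receptors, ephrins, semaphorins, plexins, neuropilins, netrins, netrin receptors (Dcc, Neo1 and Unc5a to Unc5d), Slits and Robos. This gave 69 of the 47643 genes in the files, 34 ligands and 35 receptors. No expression value entered the symbol rule, but the set was chosen with earlier results of these data known. Ntn3 also fits the rule and was not analysed here.

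KPYYF mice carried, among their alleles, Trp53 frt/+, Yap flox/flox, Pdx-Flp and R26 FSF-CreER/Dual, and KPF controls carried the same alleles apart from Yap flox/flox. Flp under the Pdx1 promoter started the tumors in the pancreas, and mice of both genotypes received tamoxifen in the diet once tumors were palpable. The Dual reporter turned from GFP to tdTomato (Tm) where CreER was active, and cells were sorted by these colors, which gave 6 KPF libraries of GFP+Yap+ and 3 KPYYF libraries of Tm+Yap− cells. Genotype, Yap status and reporter color thus changed together and cannot be told apart, and KPF libraries 4504h and 4504s share a mouse number. Tm+Yap− cells of KPYYF mice were tumor cells that had kept growing without Yap, and not a sample of all cells that lost it. Libraries are named here by mouse number, and ages are not given in the labels. Apart from that shared number, the labels give no link between libraries, and p values measure only the spread between them.

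Ephrins are anchored to the cell surface and bind Eph receptor tyrosine kinases on neighboring cells, with A-type ephrins held by a lipid anchor and B-type ephrins spanning the membrane. Both sides of the contact can signal, and in epithelia the pair controls cell sorting and repulsion. Secreted class 3 semaphorins act through neuropilin and plexin complexes, and membrane-bound class 4 semaphorins bind B-type plexins. Netrins bind Dcc, neogenin and Unc5 receptors, and Slits bind Robos, so that a cell is drawn towards or pushed away from a source of the cue. Several of these genes are also known from blood vessel growth and from invasion of nerves in pancreatic cancer.

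The libraries held 8116539 to 9635514 counts on genes, from 3′ end tags, and values are CPM, with each library scaled to the same total after TMM correction. Yap1 lay between 41.8 and 151 CPM in KPF and between 0.712 and 7.12 CPM in KPYYF libraries. Among 7 ductal epithelium markers (Krt7, Krt8, Krt18, Krt19, Epcam, Cdh1, Muc1), all 7 were detected, their summed level was 3166 to 8893 CPM in KPF and 544 to 1560 CPM in KPYYF libraries, and 3 were lower at an adjusted p under 0.05 in edgeR's quasi-likelihood test. In KPF library 4504s, 5 acinar markers summed to 12917 CPM, and in KPF library 4601, 7 immune markers summed to 2836 CPM, against 110 to 382 CPM in the other KPF libraries. Xist had 71 to 159 counts in KPF libraries 4269, 4515 and 4601 and 3452 or more in the other 6. In bulk RNA, fewer cells of a type and less RNA per cell cannot be told apart.

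Of the 69 genes, 54 reached a sum of 100 counts over the 9 libraries and were tested, and 15 did not. Of the 54, 13 reached the sum in KPF libraries alone, among them Efna1, Sema4d, Sema4f, Unc5c, Slit1 and Robo4, and 2 in KPYYF libraries alone (Ntn1 and Unc5a), so a difference in these was partly built in by the filter. The fitted log2 fold change, KPYYF against KPF, was below 0 in 36 genes tested and above 0 in 18, with a median of -0.67, beside -0.07 over all 14105 genes tested, of which 53.3% were below 0. Over the 39 that reached the sum in each group on its own, 24 were below 0 and the median was -0.53, beside 47.1% of genes below 0 and a median of 0.05 over the 10781 genes that did so. No set of members was tested as a set.

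With Benjamini-Hochberg adjustment in the edgeR fit, 2 members had an adjusted p under 0.05, and both were lower, Efna1 and Efnb1. Among all genes tested 0.794% were called lower and 0.305% higher, and 1.10% in either direction. No member was called higher, against 1 (Slit2) with either DESeq2 or limma-voom, and 3 had an unadjusted p under 0.05 in that direction. By the rule of the study's methods, more than 2-fold with an unadjusted p under 0.05, 12 members were lower, beside 9.20% of all genes, and 3 were higher, beside 4.20%. These 12 make up 22.2% of the members tested and the 3 make up 5.56%. Among the 39 above, only Efnb1 was lower after adjustment, which is 2.56% beside 0.668% of the 10781, and 6 were lower by the rule of the methods, or 15.4%, beside 5.88%. In the 9 fits that left out 1 library, this rule was met 9 times by Efna1, Efnb1, Epha2, Sema4f, Plxnb1 and Slit2, 8 times by Efnb2 and Sema6a and 7 times by Plxnb2. It was met 6 times by Unc5c and Robo4, 5 times by Sema4d, 4 times by Sema4c and 3 times by Epha4 and Slit1, where Unc5c was not tested in 3 of the fits and Slit1 in 4. All 3 KPYYF libraries lay under the lowest KPF library in 5 members (Epha2, Efna1, Efnb1, Sema4d and Plxnb1). This is 9.26% of the members tested, beside 5.18% of all genes. Of these 5, Efna1 and Sema4d had reached the sum of 100 counts in KPF libraries alone. The reverse pattern, which 3.92% of all genes had, was seen in 0 members.

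**Figure D1:**
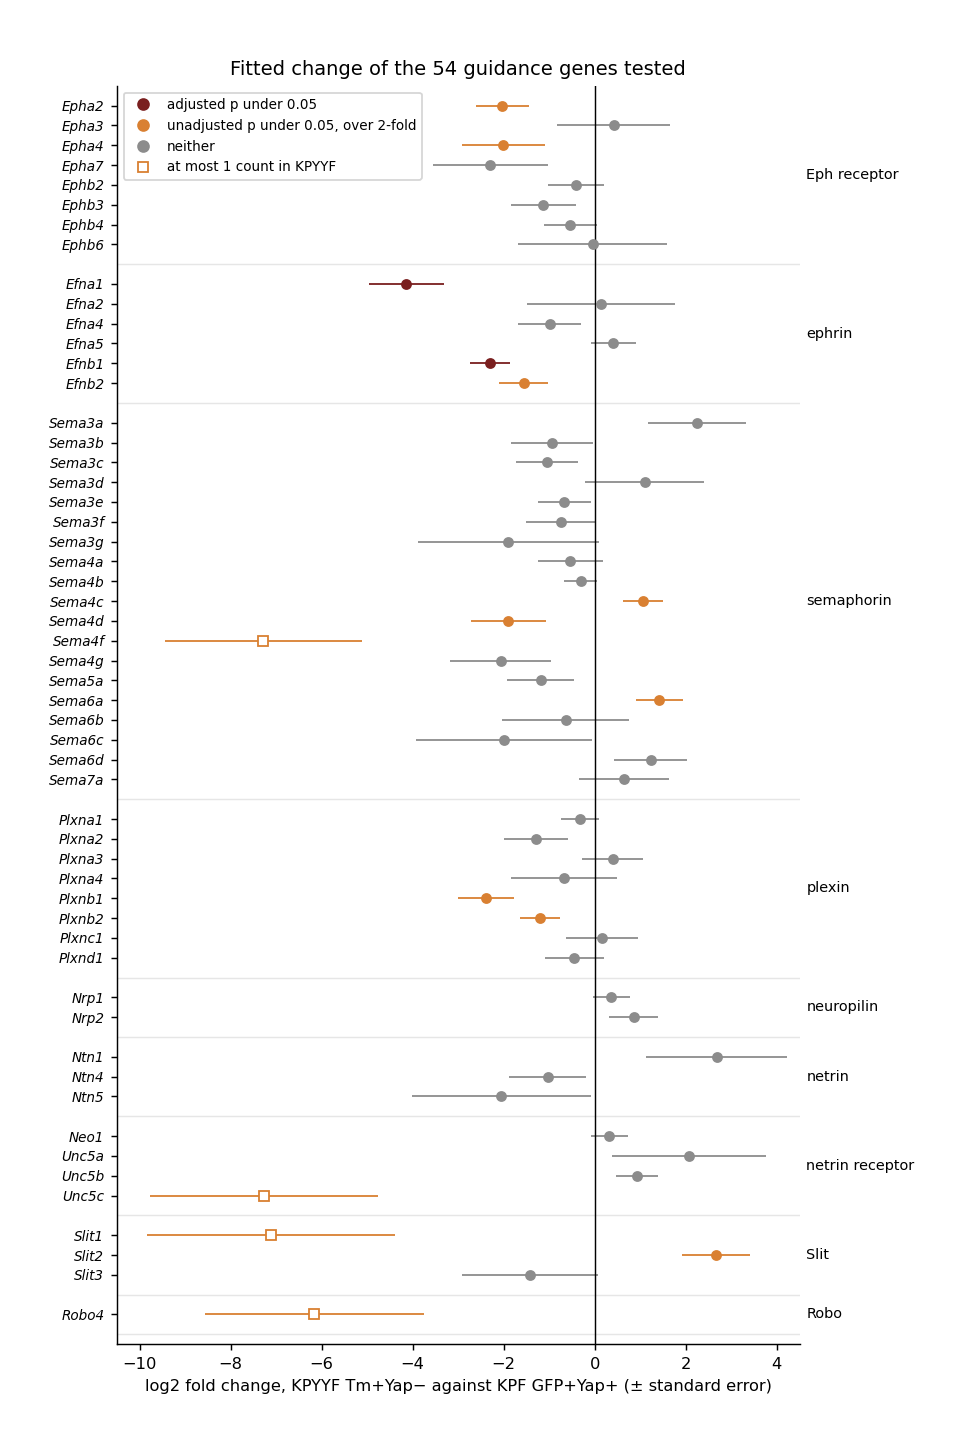
Log2 fold change (x axis, KPYYF against KPF, ± standard error) of the 54 members tested, grouped by family (y axis). Dark red marks an adjusted p under 0.05, orange a more than 2-fold change with an unadjusted p under 0.05, and open squares the 4 members with at most 1 count in all KPYYF libraries, whose fitted value depends on the prior count; 36 points lie left of 0.

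Among the families with 6 or more members tested, the median log2 fold change was -1.28 over 6 ephrins, -0.83 over 8 Eph receptors, -0.67 over 19 semaphorins and -0.56 over 8 plexins. The order changed with the library left out: without KPYYF library 4449 the median of semaphorins was -1.14 and that of Eph receptors -0.85, without KPYYF library 4938 that of plexins was -1.18 and that of Eph receptors -0.98, and without KPYYF library 4891 that of Eph receptors was -1.51 and that of ephrins -1.27. Of the 14 ephrins and Eph receptors tested, 11 lay below 0, beside 53.3% of all genes. Efna1 and Efnb1 were lower at an adjusted p under 0.05, beside 0.794% of all genes. By the rule of the methods, these 2 and Efnb2, Epha2 and Epha4 were lower, beside 9.20% of all genes.

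Efna1 (ENSMUSG00000027954, chromosome 3, 89271733 to 89281142) encodes an A-type ephrin, a ligand of Epha2. It lay between 21.3 and 96.7 CPM in the 6 KPF libraries, with a median of 48.8, and at 0.950, 1.31 and 6.58 CPM in KPYYF libraries 4449, 4891 and 4938. All 3 KPYYF libraries lay below every KPF library. The fit gave a log2 fold change of -4.14 (standard error, SE, 0.82), or 17.7-fold lower, with an adjusted p of 0.0357 by edgeR. A two-sided exact permutation test gave an unadjusted p of 0.0119, the smallest value its 84 splits allow. With the values of 4504h and 4504s averaged because of their common mouse number, the exact permutation p of Efna1 was 0.0179, the smallest of 56 splits, and so were those of Efnb1, Epha2 and Plxnb1. The adjusted p was between 0.0519 and 0.118 without any one of KPF libraries 4269, 4435, 4504s or 4515 or KPYYF libraries 4449 or 4891, and 0.102 with a term for sex. It was 0.207 with limma-voom, and over all alternatives it ran from 4.88e-07 to 0.207. Its log2 fold change stayed between -5.51 and -3.73 in all of these.

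Efnb1 (ENSMUSG00000031217, chromosome X, 99136130 to 99148991), a transmembrane ephrin that binds EphB receptors, had 49.5 to 138 CPM in KPF libraries with a median of 80.8. In KPYYF libraries 4449, 4891 and 4938 it had 17.5, 9.95 and 23.1 CPM. Again no KPYYF library reached the lowest KPF library. The log2 fold change of Efnb1 was -2.30 (SE 0.44), a 4.94-fold lower level, with an adjusted p of 0.0295 by edgeR (exact permutation p = 0.0119). Without KPF libraries 4435, 4504s or 4515 or KPYYF libraries 4891 or 4938, each left out alone, the adjusted p lay between 0.0585 and 0.0931, and it was 0.0460 with a term for sex. Over all alternatives it ran from 1.89e-05 to 0.0931.

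Efnb2 (ENSMUSG00000001300), the transmembrane ephrin known from arteries, had 14.9 to 75.4 CPM in KPF libraries (median 47.3) and 18.0, 8.31 and 21.7 CPM in KPYYF libraries. The low KPF end was library 4601, which overlapped the KPYYF values. The log2 fold change was -1.56 (SE 0.55, adjusted p = 0.174 by edgeR), which passed the rule of the methods. The other ephrins tested passed neither rule: Efna4 had a median of 9.85 CPM in KPF and 1.86 to 7.96 CPM in KPYYF libraries (fitted log2 fold change -0.99), and Efna5 had 11.8 to 51.4 and 26.2 to 61.0 CPM (0.41), a value that turned to -0.022 without KPYYF library 4891.

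Epha2 (ENSMUSG00000006445, chromosome 4, 141301240 to 141329384) encodes the Eph receptor best known from epithelial tumors. It lay between 28.0 and 106 CPM in KPF libraries, with a median of 44.3, and at 12.6, 3.72 and 21.8 CPM in KPYYF libraries 4449, 4891 and 4938. The groups did not overlap. This gave a log2 fold change of -2.03 (SE 0.58), with an adjusted p of 0.115 by edgeR and an exact permutation p of 0.0119. Over all alternatives the adjusted p ran from 0.00900 with DESeq2 to 0.305 with a term for sex, and it was 0.0447 with no filter on low counts.

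Epha4 (ENSMUSG00000026235), a receptor for both ephrin types, had 13.9 to 73.4 CPM in KPF libraries (median 35.9) and 23.9, 0.656 and 4.38 CPM in KPYYF libraries. Library 4449 lay inside the KPF range, and the other 2 KPYYF libraries lay below it. The fit gave a log2 fold change of -2.01 (SE 0.91, adjusted p = 0.302 by edgeR), and -3.94 (adjusted p = 0.0522) without library 4449. The EphB receptors with the highest CPM overlapped between groups and passed neither rule: Ephb3 had 24.2 to 169 and 19.4 to 86.3 CPM, and Ephb4 had 14.9 to 32.5 and 3.09 to 24.1 CPM. Of the 14 Eph receptor genes, 6 stayed under the filter.

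**Figure D2:**
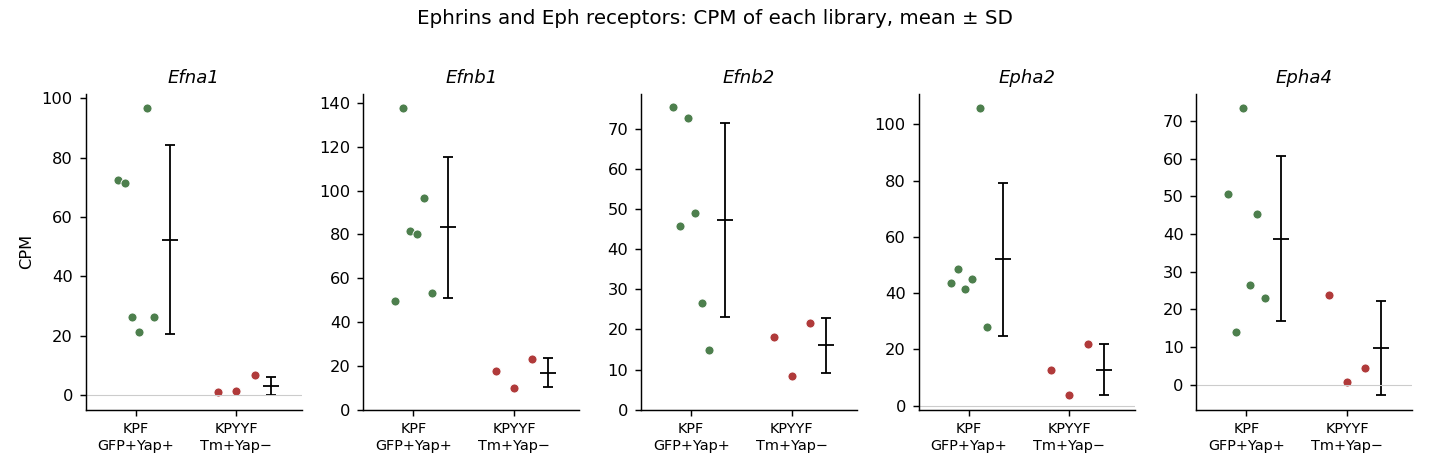
CPM (y axis, linear) of 3 ephrins and 2 Eph receptors in each of the 6 KPF (green) and 3 KPYYF (red) libraries, with the mean ± SD in black. In Efna1, Efnb1 and Epha2 all red points lie below all green points; in Efnb2 and Epha4 they overlap.

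Yap acts through TEAD factors, and promoters of the members were therefore searched on both strands for the letters GGAATG, the core of the TEAD motif. RefSeq promoter windows of GRCm38.p6, from 250 bases before to 50 after a start, were at hand for 59 of the 69 genes and for 13 of the 15 that passed a rule. The letters were in 14.7% of all 32851 windows and in 8 of the 75 windows of members (10.7%). Among the genes that passed a rule they were in the windows of Epha2, Efnb2 and Plxnb1. The stretches before the start of these 3 and of the 2 genes called after adjustment are shown 5′ to 3′ on the strand of the gene, with GGAATG or its reverse complement in capitals, Epha2 from chr4:141300971-141301220, Efnb2 from chr8:8661243-8661492 (minus strand), Plxnb1 from chr9:109095186-109095435, Efna1 from chr3:89280952-89281201 (minus strand, the outer of 2 starts) and Efnb1 from chrX:99135811-99136060.
Epha2: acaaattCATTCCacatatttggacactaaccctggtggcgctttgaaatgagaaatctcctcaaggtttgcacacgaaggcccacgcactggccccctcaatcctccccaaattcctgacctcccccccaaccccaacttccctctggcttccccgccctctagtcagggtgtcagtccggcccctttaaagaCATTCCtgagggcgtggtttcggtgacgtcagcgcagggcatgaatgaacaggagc
Efnb2: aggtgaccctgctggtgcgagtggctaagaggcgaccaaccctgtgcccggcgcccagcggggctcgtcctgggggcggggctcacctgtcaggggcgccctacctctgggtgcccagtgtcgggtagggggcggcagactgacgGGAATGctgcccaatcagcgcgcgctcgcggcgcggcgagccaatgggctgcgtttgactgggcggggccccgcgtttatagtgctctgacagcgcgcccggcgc
Plxnb1: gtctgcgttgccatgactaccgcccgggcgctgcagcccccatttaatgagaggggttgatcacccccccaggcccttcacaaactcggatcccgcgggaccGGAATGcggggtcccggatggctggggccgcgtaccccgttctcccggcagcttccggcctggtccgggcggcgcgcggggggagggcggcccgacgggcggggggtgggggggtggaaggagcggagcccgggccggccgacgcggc
Efna1: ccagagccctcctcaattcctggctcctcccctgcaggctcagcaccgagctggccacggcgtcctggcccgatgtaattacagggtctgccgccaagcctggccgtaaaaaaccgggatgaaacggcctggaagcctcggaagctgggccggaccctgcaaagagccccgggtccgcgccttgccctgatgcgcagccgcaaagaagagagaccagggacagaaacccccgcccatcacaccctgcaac
Efnb1: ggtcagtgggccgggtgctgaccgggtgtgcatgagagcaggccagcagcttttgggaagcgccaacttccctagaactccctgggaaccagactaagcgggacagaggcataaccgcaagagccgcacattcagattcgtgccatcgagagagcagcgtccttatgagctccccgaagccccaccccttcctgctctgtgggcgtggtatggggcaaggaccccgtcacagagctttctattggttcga
Epha2 has the letters in 2 places, Efnb2 and Plxnb1 in 1, and the stretches of Efna1 and Efnb1 hold none. A match of 6 letters is a description of the window and not a binding site. The AP-1 letters TGANTCA, in 7.81% of all windows, were in 3 windows of members, among them those of Sema4c and Sema4d, and the E-box CACCTG, in 20.2% of all windows, was in 10, among them those of Efnb2, Plxnb2, Sema4c and Sema4f. No match of 1 of these motifs overlapped a match of another in the windows of members.

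Semaphorins lay on both sides of 0. Of 20 genes, 19 were tested, 6 had a log2 fold change above 0 and 13 below, and the median was -0.67. No semaphorin had an adjusted p under 0.05, and 4 passed the rule of the methods, Sema4c and Sema6a as higher and Sema4d and Sema4f as lower. The 4 belonged to the membrane-bound classes, and 0 of the 7 secreted class 3 genes passed, beside 13.4% of all genes in either direction. At that share, 7 genes are too few to set the classes apart. Sema4d and Sema4f had reached the sum of 100 counts in KPF libraries alone.

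Sema4d (ENSMUSG00000021451), the ligand of plexin B1, had 5.01 to 30.3 CPM in KPF libraries with a median of 9.90, and 4.99, 2.95 and 1.64 CPM in KPYYF libraries. The highest KPYYF library lay just under the lowest KPF library, and the highest KPF library, 4601, was also the one with 2836 CPM of immune markers, whose part in the result was not tested. Its fitted log2 fold change was -1.90 (SE 0.82, adjusted p = 0.272 by edgeR), -1.36 without KPF library 4601 and -1.13 with a term for sex. Sema4f (ENSMUSG00000000627), another class 4 semaphorin, had 442 counts in the KPF and 1 in the KPYYF libraries. Its KPF values ran from 0 to 24.0 CPM, so that the groups overlapped at 0. Scaled to depth, the KPF to KPYYF ratio was 216 (38.7 to 8569, exact 95% interval of the counting error only), with an adjusted p of 0.121 by edgeR, and the ratio was 118 without KPF library 4269, which had 24.0 CPM.

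Sema4c (ENSMUSG00000026121), a ligand of plexin B2, lay between 18.3 and 28.5 CPM in KPF libraries, with a median of 21.5, and at 13.8, 68.4 and 56.8 CPM in KPYYF libraries 4449, 4891 and 4938. Library 4449 lay below every KPF library and the other 2 above every one. This gave a log2 fold change of 1.06 (SE 0.44, adjusted p = 0.252 by edgeR), and 1.49 (adjusted p = 0.0489) without library 4449 but 0.67 (adjusted p = 0.594) without library 4891. The annotation places an exon of D430040D24Rik on the opposite strand over 334 exon bases of Sema4c, and the strand setting of the counting is not given in the sources used here. Sema6a (ENSMUSG00000019647), a transmembrane semaphorin that binds A-type plexins, had 5.11 to 23.7 CPM in KPF libraries (median 13.5) and 46.3, 23.6 and 32.4 CPM in KPYYF libraries. Only KPF library 4435 and KPYYF library 4891 met, at 23.7 and 23.6 CPM. The fit gave a log2 fold change of 1.42 (SE 0.51, adjusted p = 0.185 by edgeR), and it stayed between 1.14 and 1.69 over all alternatives.

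Sema3a (ENSMUSG00000028883), the class 3 semaphorin first known as a collapsing factor of growth cones, had 0.996 to 126 CPM in KPF libraries (median 13.2) and 91.1, 250.5 and 148 CPM in KPYYF libraries. It was high in KPF library 4504h and low in the other KPF libraries, so 1 KPF library lay inside the KPYYF range. The log2 fold change was 2.25 (SE 1.08, adjusted p = 0.348 by edgeR, exact permutation p = 0.0595), which passed neither rule. Sema3c (ENSMUSG00000028780) had 41.7 to 102 CPM in KPF libraries, and it had 87.4 CPM in KPYYF library 4449 but 11.0 CPM in library 4891 and less in library 4938. This gave a log2 fold change of -1.05 (adjusted p = 0.497), and -2.95 (adjusted p = 0.0197) without library 4449. The other 5 class 3 genes overlapped between groups, with log2 fold changes from -1.90 (Sema3g) to 1.09 (Sema3d).

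Of 8 plexins tested, the B-type receptors Plxnb1 and Plxnb2 were lower by the rule of the methods and no other plexin passed. Of all genes, 9.20% were lower by this rule. Plxnb1 (ENSMUSG00000053646, chromosome 9, 109095389 to 109119917), the receptor of Sema4d, had 24.0 to 76.4 CPM in KPF libraries, with a median of 46.5, and 16.6, 2.30 and 8.44 CPM in KPYYF libraries 4449, 4891 and 4938. No KPYYF library reached the lowest KPF library. The fit gave a log2 fold change of -2.38 (SE 0.61), with an adjusted p of 0.0884 by edgeR and an exact permutation p of 0.0119. Over all alternatives the adjusted p ran from 0.00199 with DESeq2 to 0.260 with a term for sex, and it was 0.0196 with no filter on low counts and 0.0407 without KPYYF library 4449. An antisense gene, Gm7628, overlaps 257 exon bases of Plxnb1.

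Plxnb2 (ENSMUSG00000036606), the receptor of Sema4c, had 133 to 346 CPM in KPF libraries (median 242) and 97.5, 47.2 and 160 CPM in KPYYF libraries. KPYYF library 4938 lay above KPF libraries 4504s and 4601, and the other 2 lay below every KPF library. In log2 fold change it stood at -1.20 (SE 0.44, adjusted p = 0.191 by edgeR), which passed the rule of the methods. Plxnb3 had 2 counts in all. The A-type plexins with the highest CPM overlapped between groups, Plxna1 at 21.1 to 48.6 and 17.9 to 43.2 CPM and Plxna2 at 10.2 to 45.9 and 1.42 to 17.8 CPM.

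The neuropilins, co-receptors of class 3 semaphorins and of VEGF, passed neither rule and differed among the KPYYF libraries. Nrp1 (ENSMUSG00000025810) had 49.0 to 139 CPM in KPF libraries and 180, 74.4 and 70.6 CPM in KPYYF libraries 4449, 4891 and 4938. Nrp2 (ENSMUSG00000025969) had 44.8 to 157 CPM in KPF libraries and 33.0, 274 and 218 CPM in KPYYF libraries in the same order. Library 4449 was thus above every KPF library in Nrp1 and below every one in Nrp2, and libraries 4891 and 4938 were above every one in Nrp2. The log2 fold changes were 0.37 and 0.85 (adjusted p = 0.721 and 0.478 by edgeR), and that of Nrp1 was -0.21 without library 4449.

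**Figure D3:**
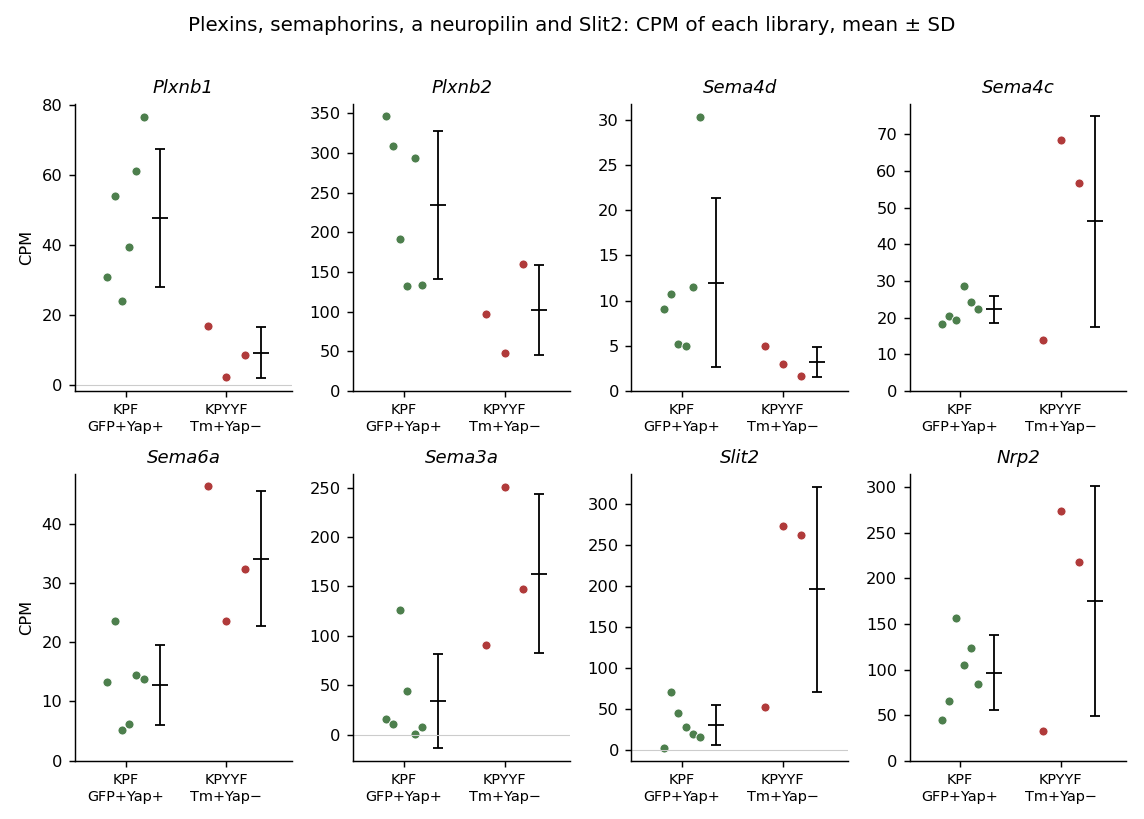
CPM (y axis, linear) of 2 plexins, 4 semaphorins, Slit2 and Nrp2 in each of the 6 KPF (green) and 3 KPYYF (red) libraries, with the mean ± SD in black. In Sema4c, Sema3a, Slit2 and Nrp2, 2 red points stand above all green points and the third, library 4449, does not.

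Slit2 (ENSMUSG00000031558, chromosome 5, 47983138 to 48307733), the secreted ligand of Robo receptors, had the largest fold among members that were higher by the rule of the methods. It had 3.21 to 70.8 CPM in KPF libraries, with a median of 24.2, and 52.5, 273 and 262 CPM in KPYYF libraries 4449, 4891 and 4938. Only library 4449 met the KPF range, below KPF library 4435. The log2 fold change of Slit2 was 2.67 (SE 0.75), a 6.38-fold higher level, with an adjusted p of 0.119 by edgeR and an exact permutation p of 0.0357, or 0.0536 with libraries 4504h and 4504s averaged. The adjusted p was 0.00347 with DESeq2, 0.0481 with limma-voom and 0.322 with a term for sex, the highest over all alternatives. Of 7 fibroblast markers, all tested, 5 had a value above 0. Of these, Pdgfra and Dpt passed the rule of the methods, beside 4.20% of all genes that were higher by it. The other 2 markers, Col1a1 and Pi16, had values below 0 (-1.46 and -1.28). Col1a1 had 56.7 to 1736 CPM in KPF libraries (highest in 4504s) and 211, 453 and 166 CPM in KPYYF libraries 4449, 4891 and 4938. Pdgfra had 4.38 to 42.0 CPM in KPF and 24.3, 285 and 116 CPM in the same KPYYF libraries. The summed level of the 7 was 214 to 2723 CPM in KPF libraries. In KPYYF libraries 4449, 4891 and 4938 it was 415, 1782 and 1270 CPM. KPF libraries 4269 and 4601, lowest in these markers at 214 and 343 CPM, had 3.21 and 15.9 CPM of Slit2, while library 4504s, with 2723 CPM of the markers, had 28.7 CPM and library 4435, with 909 CPM, had 70.8 CPM. The part of these markers in the Slit2 values was not tested.

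The other Slits, also secreted, had fitted values below 0. Slit1 had 102 counts in KPF libraries, mostly from library 4515 at 7.86 CPM, and 0 in KPYYF libraries, at least 5.64-fold lower against a floor of 3 counts in each library (adjusted p = 0.222 by edgeR). Without library 4515 this bound was 2.12-fold, from 31 counts, and Slit1 stayed under the filter. Slit3 had 1.75 to 68.7 CPM in KPF and 0, 20.6 and 3.18 CPM in KPYYF libraries, with a log2 fold change of -1.42 and an SE of 1.49. Few counts fell on 3 of the 4 Robo genes. Robo1 had 75 counts in KPF and 14 in KPYYF libraries, Robo2 had 52 and 2, and Robo3 had 4 and 0, all under the filter.

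Robo4, the Robo of endothelial cells, had 192 counts in KPF and 1 in KPYYF libraries, a ratio of 94.0 scaled to depth (16.7 to 3733, exact 95% interval of the counting error only). It had 10.4 CPM in KPF library 4504s and 0 CPM in KPF library 4269, so the groups overlapped at the low end, and the adjusted p was 0.222 by edgeR. Library 4504h, of the same mouse number as 4504s, had 6.64 CPM, and the ratio was 59.0 without 4504s. Of 7 endothelial markers, 5 could be tested, 4 had a value below 0 and 2 of them, Kdr and Vwf, passed the rule of the methods. These 2 are 40.0% of the 5, beside 9.20% of all genes that were lower by the rule. In KPYYF libraries Kdr had at most 4.37 CPM and Vwf at most 0.219 CPM. Both reached the filter through KPF libraries, so their difference was partly built in, as for Robo4. The summed level of the 7 markers was 10.9 to 67.8 CPM in KPF and 10.5 to 15.0 CPM in KPYYF libraries, and none of the 7 was at 0 throughout. The part of these markers in the Robo4 result was not tested.

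Netrins (3 tested) and their receptors (4 tested) gave 1 gene by the rule of the methods, beside 13.4% of all genes in either direction. Unc5c had 116 counts in KPF libraries, from 0 to 4.28 CPM, and 0 in KPYYF libraries, at least 6.26-fold lower against the same floor (adjusted p = 0.178 by edgeR). Unc5b (ENSMUSG00000020099), a receptor that repels cells from netrins and is known from vessels, had 95.0 to 417 CPM in KPF and 424, 168 and 592 CPM in KPYYF libraries. KPYYF libraries 4449 and 4938 lay above every KPF library and library 4891 within their range. The log2 fold change of Unc5b was 0.93 (SE 0.46, adjusted p = 0.352 by edgeR). Neo1, the netrin and RGM receptor neogenin, overlapped, with 27.1 to 121 and 75.9 to 106 CPM. Dcc, the receptor that draws axons to netrin, stayed at 0 in all 9 libraries, and a 0 allows up to 3 counts per library. Among the netrins themselves, Ntn4 had 3.89 to 21.6 CPM in KPF and 0.712, 6.23 and 10.4 CPM in KPYYF libraries, and Ntn1 had 0 to 7.06 CPM in KPF and 0.950, 27.9 and 3.07 CPM in KPYYF libraries.

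The 3 KPYYF libraries, each from another mouse, differed among themselves in these genes. At least 10 CPM in the highest KPYYF library was reached by 39 members tested. Of these, 5 (12.8%) were more than 2-fold above both others in library 4449, beside 15.3% of the 10330 genes of this level. In the same library 10 (25.6%) were more than 2-fold below both, beside 13.5%. In library 4891, 6 (15.4%) were above and 10 (25.6%) below, beside 6.85% and 9.17%. In library 4938, 5 (12.8%) were above and 1 (2.56%) below, beside 4.79% and 8.92%. Library 4449 was high in Epha4, Sema3c, Sema3f, Sema4a and Nrp1 and low in Ephb4, Sema4c, Sema4g, Plxna4, Nrp2, Ntn1, Ntn4, Unc5a, Slit2 and Slit3. Library 4891 was low in Epha2, Epha4, Efnb2, Sema3b, Sema7a, Plxna2, Plxnb1, Plxnb2, Plxnd1 and Unc5b. The summed ductal epithelium markers were 1560 CPM in library 4449, 544 CPM in library 4891 and 652 CPM in library 4938. The acinar markers summed to 2355 CPM in library 4449 and to 40.6 and 49.1 CPM in libraries 4891 and 4938, beside 49.1 to 12917 CPM in KPF libraries. The part of both marker sums in the pattern was not tested. Efna1 and Efnb1 were below the KPF range in each of the 3, whatever the order among them. The same marker sum was 3166 CPM or more in every KPF library, and its part in the lower Efna1, Efnb1, Epha2 and Plxnb1 values was not tested either.

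**Figure D4:**
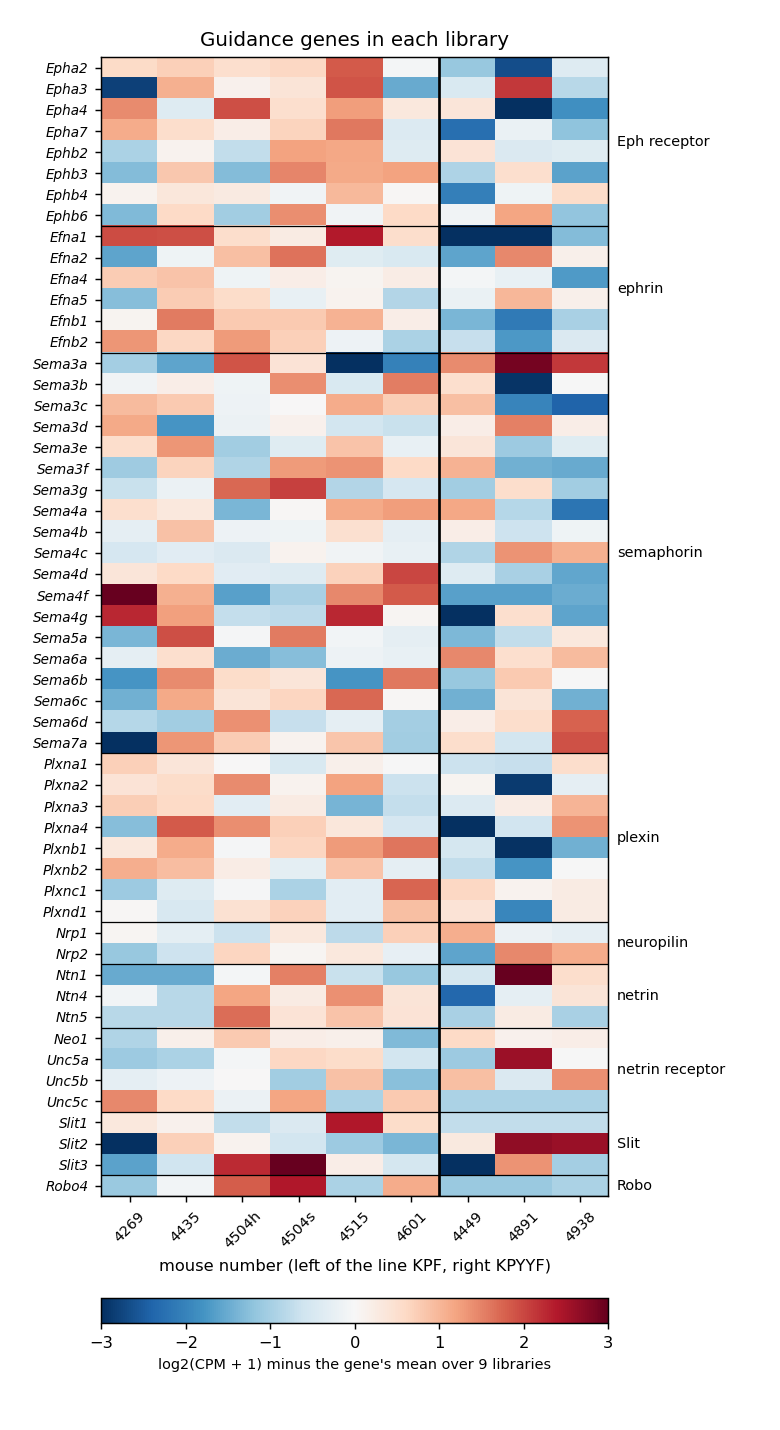
Heat map of log2(CPM + 1) minus the mean of each gene over the 9 libraries, for the 54 members tested (rows, by family) in 6 KPF and 3 KPYYF libraries (columns, by mouse number). Red is above and blue below the gene's mean, with the color scale held at ±3; the Efna1 and Efnb1 rows are blue in all 3 KPYYF columns, and Nrp1 and Nrp2 take opposite colors in column 4449.

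A list of 44 co-receptors and effectors that work beside the members, such as cell adhesion co-receptors, CRMPs, GTPase regulators and actin linkers, had a median near that of all genes. Of these, 37 were tested, 18 lay above and 19 below 0, and the median log2 fold change was -0.02. At an adjusted p under 0.05, 1 was lower and 0 were higher, and by the rule of the methods 7 were lower and 2 higher; DESeq2 called 1 higher, Rgmb. The 1 lower after adjustment stands beside 0.794% of all genes, and the 7 and 2 by the rule are 18.9% and 5.41% of the 37, beside 9.20% and 4.20%. The gene lower after adjustment was Srgap1, a GTPase-activating protein that binds the tail of Robo receptors. It had 15.6 to 35.6 CPM in KPF and 1.31, 4.70 and 4.05 CPM in KPYYF libraries, without overlap. This gave a log2 fold change of -2.91 (SE 0.60, adjusted p = 0.0373 by edgeR), and it passed without any one of KPF libraries 4269 or 4601 or KPYYF library 4449 but not in the other 6 fits that left out 1 library (adjusted p up to 0.105). Over all alternatives the adjusted p of Srgap1 ran from 2.98e-05 to 0.122.

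The highest fitted value among the others on the list that passed the rule was that of Rgma, a glycolipid-anchored ligand of neogenin, at 0 to 17.3 CPM in KPF and 12.2, 83.4 and 13.6 CPM in KPYYF libraries (fitted at 2.60 in log2 fold change, SE 1.14, adjusted p = 0.291 by edgeR). The groups overlapped in Rgma. Ntng2 had no count.

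The 15 members under the filter were Epha1, Epha5, Epha6, Epha8, Epha10, Ephb1, Efna3, Efnb3, Sema5b, Plxnb3, Dcc, Unc5d, Robo1, Robo2 and Robo3. Epha10, Dcc and Unc5d had no count. Epha1, an Eph receptor of epithelia, had 66 counts over the KPF and 6 over the KPYYF libraries, and Ephb1 had 26 and 0. Epha5 had 21 and 0, Sema5b 24 and 0, Efna3 29 and 4, and Efnb3 32 and 44. The 26 counts of Epha6 and the 32 of Epha8, both Eph receptors of the nervous system, all came from KPYYF library 4891.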

How the data were processed

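RNA of sorted cells was made into QuantSeq 3′ end libraries (6 KPF, 3 KPYYF). The authors deposited raw counts per Ensembl gene; the submitters' processing notes name STAR, HTSeq and mm10 without versions, while the methods text describes BeadChips, a sum filter of 100 and DESeq2. Symbols and positions came from GENCODE M21 (GRCm38). Genes with at least 100 counts in all were fitted with edgeR 4.0.16 (TMM, robust quasi-likelihood, no covariates, two-sided, R 4.3.3), with Benjamini-Hochberg adjustment over all 14105. Single genes also had exact permutation tests of log2 CPM (prior count 2), with no adjustment over genes. Alternatives were DESeq2 1.42.0, limma-voom (limma 3.58.1), RLE, upper quartile, no filter, filterByExpr, 4504h and 4504s summed, a sex term from Xist, and each library left out. Leaving out 4504s and 4601 together was chosen after seeing the data. A floor of 3 counts is 0.292 to 0.437 CPM and covers counting error only. Members and lists were chosen with earlier results of these data known. Named genes are those passing either rule, and in each family the 2 others of highest CPM; the rest, including Sema3g, Sema3d, Ntn1 and Rgmb where outside it, were picked with their values in view. Some items, 1 allele among them, are not reported here. The scripts were tested on simulated data. Figures used matplotlib 3.10.9.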

Additional observations from a re-analysis of the deposited data

How the results depend on the processing

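The counts of members at an adjusted p under 0.05 (0 higher, 2 lower) were 1 higher and 7 lower with DESeq2, 1 and 0 with limma-voom, 0 and 4 with no filter on low counts and 0 and 1 with a term for sex. With each library left out in turn they ran from 0 to 1 higher and from 0 to 3 lower. The 3 higher by the rule of the methods were 6 with limma-voom and 5 with no filter, and 2 to 5 with each library left out. Without KPF libraries 4504s and 4601, chosen after seeing the data, 1 member was lower at an adjusted p under 0.05 (Efna1, 0.0450; Efnb1 had 0.0542) and 7 of the 12 were lower by the rule, where Unc5c, Slit1 and Robo4 were no longer tested. Of co-receptors and effectors (0 higher, 1 lower), DESeq2 called 1 higher and 3 lower, and limma-voom, 4504h and 4504s summed, the sex term and the fit without 4504s and 4601 called 0 lower, against 0 to 4 with each library left out. By the rule (2 higher, 7 lower) the list had 1 higher with no filter, 1 higher and 3 lower with the sex term, 4 lower without 4504s and 4601, and 1 to 3 higher and 1 to 7 lower with each library left out. The log2 fold change of Efna5 (0.41) was -0.014 with the sex term and -0.022 without KPYYF library 4891 (up to 0.64 with others left out), that of Nrp1 -0.21 without KPYYF library 4449 (up to 0.60), and that of Neo1 (0.32) -0.086 with the sex term. With no filter, the median of all genes was -0.31. Causes of these changes were not tested. With 3 KPYYF libraries, no exact permutation p can be below 0.0119, or 0.0179 with 4504h and 4504s averaged, which was chosen after seeing the data. No paired analysis was possible because no mouse number occurs in both groups.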

Other observations

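Unc5a, a netrin receptor, had 11.6 CPM in KPYYF library 4891, 0 and 1.10 CPM in KPYYF libraries 4449 and 4938 and at most 2.28 CPM in KPF libraries. Ntn1 had 27.9 CPM in library 4891 against 7.06 CPM in the highest other library. Of 7 Schwann cell and neuron markers, Sox10 and Cdh19 were at 0 in all 9 libraries, and the sum of the 7 was 17.4 CPM in this library, 12.9 to 17.4 CPM over the KPYYF and 30.0 to 191 CPM over the KPF libraries. Islet markers summed to 2.63 to 11.2 CPM in KPYYF and 0.511 to 49.9 CPM in KPF libraries. The genes were picked after their values were seen, and 1 library gives no test.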
